A study of Mus musculus with 32 samples.

Results

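The mitochondrially encoded transcripts of the mouse cochlea were followed here: the genes whose symbols start with mt-, which lie on the mitochondrial chromosome. There were 37 of them among the 39399 genes listed in the Prestin files and the 43947 listed in the Sox2 files, and they comprised 13 protein-coding genes, 2 ribosomal RNA genes and 22 tRNA genes. RNA was sequenced from cochleae of mice aged 10 weeks that carried RiboTag, an allele that puts an HA tag on the ribosomal protein Rpl22 in cells with Cre. Prestin groups had the genotype PrestinCre/+;RiboTagHA/+ and Sox2 groups Sox2Cre/+;RiboTagHA/+, and the series' design text gives both Cre alleles as tamoxifen-type CreERT2 drivers on a background with CBA. All groups therefore carried 1 Cre allele and 1 RiboTag allele, controls included. From each cochlear homogenate, RNA was taken from the whole lysate (input) and from the HA immunoprecipitate (IP), labelled as enriched for outer hair cells in the Prestin strain and for supporting cells in the Sox2 strain. Controls received no noise, and the other mice received 105 dB SPL for 2 h and were taken 6 h or 24 h later. The 32 libraries came from 16 homogenates in 12 groups, with 3 libraries in every Prestin group, 3 in the Sox2 groups at 24 h and 2 in the other Sox2 groups. The labels call the replicates biological but do not say how many animals each homogenate pooled. Values were TPM, a library's reads per gene divided by gene length and scaled so that every library has the same sum.

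Mitochondria keep a small circular genome whose strands are each copied as long transcripts, and most of the messenger and ribosomal RNAs are freed when the tRNAs lying between them are cut out. The encoded proteins are core subunits of complexes I, III, IV and V of oxidative phosphorylation. They are made on mitochondrial ribosomes, which are built on the 12S and 16S ribosomal RNAs of the same genome and do not contain Rpl22, a protein of cytosolic ribosomes. Outer hair cells and the stria vascularis are cochlear cells with a high demand for mitochondrial energy.

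The order of the genes along this chromosome matters for how they were measured. In the GRCm38 build the tRNA genes sit between, and partly within, the longer genes, and the table of positions used here was GENCODE M21. The 4 tRNA genes with the most reads in the Prestin inputs are shown from 5′ to 3′ on their own strand, with capitals marking bases that also belong to a neighbouring gene (mt-Nd2 for mt-Tw, mt-Ti for mt-Tq).
mt-Tp (tRNA for proline, chrM:15356-15422, minus strand): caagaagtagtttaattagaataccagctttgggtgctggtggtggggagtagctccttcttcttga
mt-Tw (tRNA for tryptophan, chrM:4950-5016, plus strand): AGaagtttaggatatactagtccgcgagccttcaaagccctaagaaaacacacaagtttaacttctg
mt-Tt (tRNA for threonine, chrM:15289-15355, plus strand): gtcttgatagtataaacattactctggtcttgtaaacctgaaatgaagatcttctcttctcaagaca
mt-Tq (tRNA for glutamine, chrM:3772-3842, minus strand): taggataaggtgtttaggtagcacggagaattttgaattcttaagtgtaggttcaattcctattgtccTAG
These genes are 67 to 71 bases long. Low TPM values of genes with 1 exon fell on whole multiples of 1 step per library (97.4% to 99.3% of values up to 20 reads, within 0.05 of a read), so the reads behind a value could be read back. A single read on a tRNA gene of 69 bases was worth 2.46 to 11.1 TPM depending on the library.

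Several protein-coding genes have near-identical copies in the nuclear genome. On chromosome 1, 7 annotated unprocessed pseudogenes between chr1:24611535-24616197 (minus strand, 4663 bases) carry in the same order the stretch chrM:6394-11042 (4649 bases), from base 1067 of mt-Co1 through mt-Co2, mt-Atp6, mt-Co3, mt-Nd3 and mt-Nd4l to base 876 of mt-Nd4. Stretches of 60 bases are shown because a read from them can be placed at either site or, where a base differs (capitals), at 1 site.
mt-Co2 from base 311, identical in Gm28661: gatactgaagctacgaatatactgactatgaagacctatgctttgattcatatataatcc
mt-Nd4 from base 409, identical in Gm28439: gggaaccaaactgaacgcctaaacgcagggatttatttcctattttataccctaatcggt
mt-Nd3 from base 1: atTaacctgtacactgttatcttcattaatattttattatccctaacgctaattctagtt
Gm28438 at the matching place: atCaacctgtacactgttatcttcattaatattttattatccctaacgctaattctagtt
mt-Co1 from base 24: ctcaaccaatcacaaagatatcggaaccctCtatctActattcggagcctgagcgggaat
Gm13340 at the matching place: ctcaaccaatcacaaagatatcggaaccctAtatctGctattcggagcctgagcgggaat
mt-Nd5 from base 706: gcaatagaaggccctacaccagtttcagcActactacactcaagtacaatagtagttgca
Gm4076 at the matching place: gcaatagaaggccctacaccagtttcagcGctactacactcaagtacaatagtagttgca
mt-Co2 matched Gm28661 at 681 of 681 aligned bases, mt-Nd4 matched Gm28439 at 876 of 876 and mt-Nd3 matched Gm28438 at 344 of 345. mt-Co1 matched Gm13340 on chromosome 2 (chr2:22588103-22589647, minus strand) at 1508 of 1545 bases, or 97.6%. mt-Nd5 matched Gm4076 on chromosome 13 (chr13:85126550-85127514, minus strand) at 872 of 965 bases, or 90.4%. Of all windows of 50 bases along a gene, the share found unchanged in an annotated nuclear transcript was 98.0% to 100% in mt-Co2, mt-Atp6, mt-Co3, mt-Nd3 and mt-Nd4l. It was 62.2% in mt-Nd4, 51.1% in mt-Co1, 8.19% in mt-Nd2, 7.61% in mt-Nd5 and 1.04% in mt-Rnr2, and 0 in mt-Nd1, mt-Nd6, mt-Cytb, mt-Rnr1, mt-Atp8 and all tRNA genes. mt-Atp8 lies inside the matched stretch, at a place where no pseudogene is annotated. The tRNA genes mt-Ts1, mt-Td, mt-Tk, mt-Tg and mt-Tr also lie inside this stretch. Only annotated transcripts were searched, so a share of 0 does not show that a gene has no nuclear copy.

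The genes inside this stretch were listed at or near 0. mt-Nd1, mt-Nd2, mt-Co1, mt-Nd4, mt-Nd5, mt-Nd6, mt-Cytb, mt-Rnr1 and mt-Rnr2 were above 0 in all 32 libraries. mt-Atp8 and mt-Nd4l, which encode a complex V and a complex I subunit, were listed at 0 in all 32 libraries. mt-Co2, mt-Atp6, mt-Co3 and mt-Nd3, subunits of complexes IV, V, IV and I, were above 0 in 10, 8, 7 and 11 libraries, with highest values of 13.6, 2.98, 3.53 and 34.2 TPM. These 6 genes lie next to each other, between mt-Co1 and mt-Nd4, which reached 73648 and 17407 TPM. Some nuclear copies were also listed with reads. Gm28661, the chromosome 1 copy of mt-Co2, had 0 to 5.41 TPM over the 9 Prestin inputs, and all Sox2 libraries listed it at 0. Gm13341, a copy of part of mt-Co2 on chromosome 2, had 6.2 to 22.3 TPM in the Prestin inputs and 3.74 to 20.7 TPM in the Sox2 inputs. Gm28438, the copy of mt-Nd3 with 1 differing base, had 188 to 274 TPM over the 9 Prestin inputs and 139.9 to 256 TPM over the 7 Sox2 inputs, against 0.745 to 6.39 TPM (median 3.78) for mt-Nd3 in the Prestin inputs. The part of read placement in these levels was not tested. How reads with more than 1 placement were counted is not given in the sources used here. Levels of mt-Co1 and mt-Nd4, which share most of their windows with nuclear copies, are therefore less certain than those of mt-Nd1, mt-Nd6, mt-Cytb and mt-Rnr1.

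**Figure D1:**
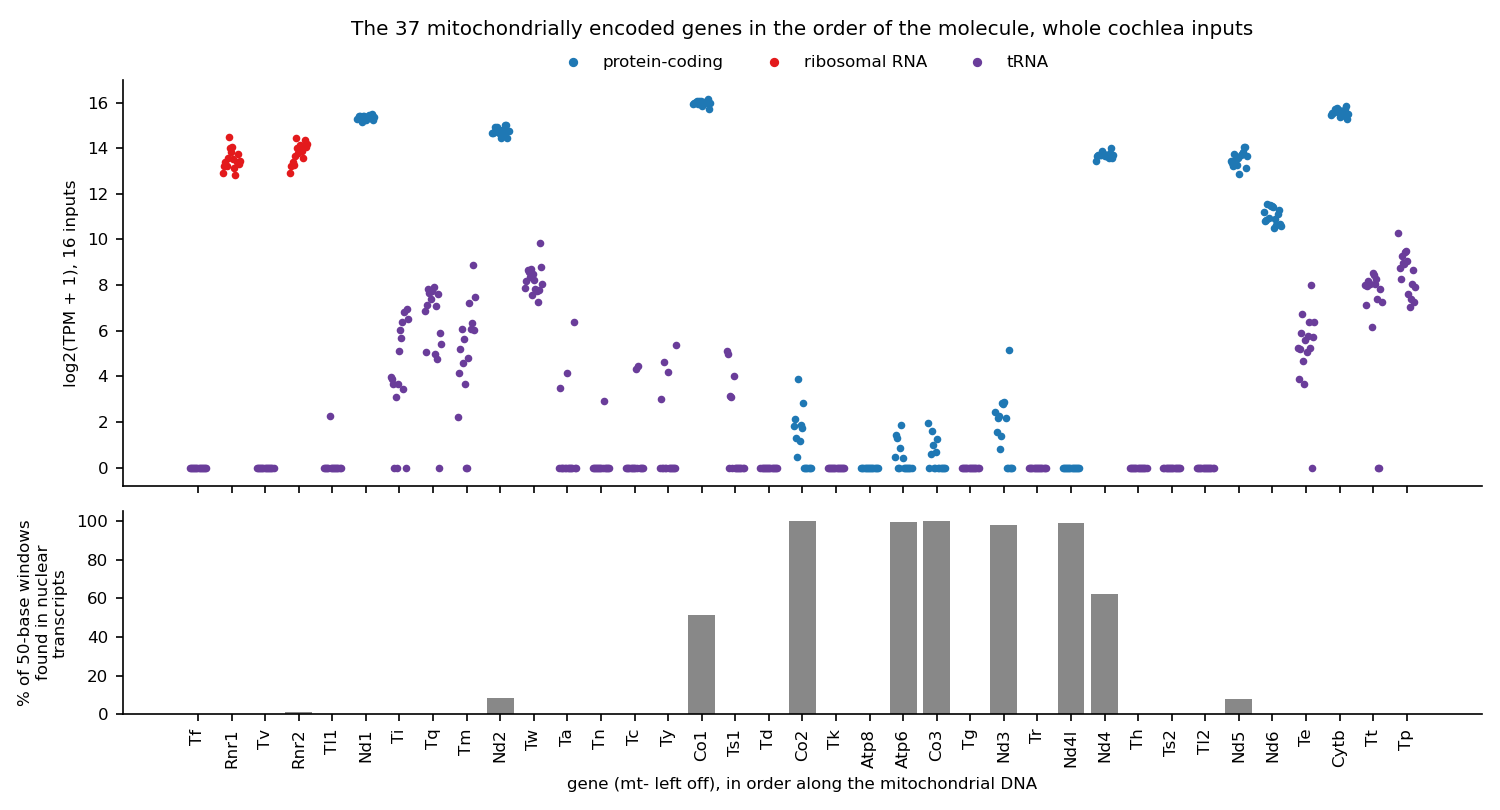
The 37 genes in their order on the mitochondrial chromosome: the top panel gives log2(TPM + 1) in each of the 16 input libraries (points), and the bottom panel the percentage of windows of 50 bases that occur unchanged in an annotated nuclear transcript (bars). The run from mt-Co2 to mt-Nd4l, with bars near 100% apart from mt-Atp8 and the tRNA genes within it, sits at or near 0 in the top panel. The genes mt-Nd1, mt-Nd2, mt-Nd5, mt-Nd6, mt-Cytb, mt-Rnr1 and mt-Rnr2, with short or empty bars, lie high. The tRNA genes also have empty bars and lie low or at 0.

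Most tRNA genes had no or few reads. Of the 14 tRNA genes on the plus strand, 9 (mt-Tf, mt-Tv, mt-Td, mt-Tk, mt-Tg, mt-Tr, mt-Th, mt-Ts2 and mt-Tl2) were at 0 in all 32 libraries, while all 8 on the minus strand had at least 1 read in some library. Of those at 0, mt-Td, mt-Tk, mt-Tg and mt-Tr lie inside the stretch also carried on chromosome 1. mt-Tp was above 0 in 30 libraries, mt-Tw in 28, mt-Tq in 23, mt-Te and mt-Tt in 22 each, mt-Tm in 20 and mt-Ti in 17. mt-Ty and mt-Ts1 were above 0 in 5 libraries each, mt-Ta in 4, mt-Tc in 2, and mt-Tn and mt-Tl1 in 1 each. In all, tRNA genes were worth 281 to 511 reads per Prestin input and 4 to 94 per Prestin IP, against 989410.0 to 1450110.0 and 81547 to 339227 reads for all mitochondrially encoded genes. These are reads assigned to tRNA positions, which mature tRNAs and longer precursors share, and they are not a measure of the amount of mature tRNA.

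The IPs held the markers of their labelled cells, along with those of other cells. Slc26a5 (prestin) was 2.46 ± 0.23 and Ocm 3.42 ± 0.17 log2 units higher in the Prestin IPs than in their inputs, and all 10 outer hair cell markers were called higher (limma, adjusted p under 0.05), where 68.5% of all genes tested were called higher. Sox2 was 3.19 ± 0.20 and Fgfr3 2.99 ± 0.14 log2 units higher in the Sox2 IPs, with 9 of 10 supporting cell markers called higher, against 55.2% of all genes. The supporting cell markers summed to 3279 to 3785 TPM in the Prestin control IPs against 2637 to 2960 TPM in their inputs. These sums were 3243 to 3998 against 2134 to 2527 TPM at 6 h and 4582 to 4855 against 3174 to 3355 TPM at 24 h. Of 9 markers of Schwann and satellite glia, 9 were called higher in the Sox2 IPs and 7 in the Prestin IPs, the second near the share of all genes. Markers of the stria vascularis were called lower for 5 of 9 in the Prestin strain and 8 of 9 in the Sox2 strain, where 7.68% and 2.72% of all genes were called lower. Sox2 libraries at 6 h had fewer genes above 0 than the other Sox2 libraries (15929 to 16966 against 17395 to 21239). In bulk samples such as these, fewer cells of a type and less RNA per cell cannot be told apart.

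In the whole cochlea the complex IV subunit mt-Co1 was the highest mitochondrial messenger. Over the 9 Prestin inputs it ran from 59017 to 69822 TPM (median 66767), followed by the complex III subunit mt-Cytb from 42182 to 54995 TPM (median 49136). Complex I subunits came next, with mt-Nd1 from 36359 to 43497 TPM (median 42784) and mt-Nd2 from 22244 to 31199.6 TPM (median 26592). The ranges of mt-Co1, mt-Cytb and mt-Nd2 did not overlap in these inputs, but those of mt-Cytb and mt-Nd1 did. Lower and overlapping among themselves were mt-Nd4 from 11184 to 15052 TPM (median 13353), mt-Rnr2 (16S ribosomal RNA) from 7704 to 22205 TPM (median 12914), mt-Rnr1 (12S ribosomal RNA) from 7777 to 22844 TPM (median 12307) and mt-Nd5 from 7379 to 13643 TPM (median 10948). Of the 9 genes above 0 in every library, mt-Nd6, the only protein-coding gene on the minus strand, was lowest, from 1809 to 2966 TPM (median 2777). The Sox2 inputs gave the same first 4 genes in the same order, with medians of 65486, 46425, 42535 and 27529.6 TPM, and again mt-Nd6 last at 1659 TPM.

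The ribosomal RNAs showed a ratio that differed between the file sets. mt-Rnr2 divided by mt-Rnr1 was 0.955 to 1.05 in the 9 Prestin inputs and 1.52 to 1.72 in the 7 Sox2 inputs. In the IPs it was 0.619 to 0.782 and 1.13 to 1.46. The ranges of the strains did not overlap in either fraction. Strain and file set (the Prestin and Sox2 files list different numbers of genes) cannot be told apart for this ratio.

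In both strains the pull-down held less mitochondrially encoded RNA than the whole cochlea. The 37 genes together made up 7.62, 8.4 and 4.91% of the TPM of the Prestin control IPs, 13.7, 11.5 and 10.6% at 6 h and 10.4, 13.1 and 7.4% at 24 h. The same share was 3.07 and 4.35% in the Sox2 control IPs, 8.83 and 7.21% at 6 h and 5.8, 3.63 and 4.63% at 24 h. Each IP lay below the input of its own homogenate, and no IP reached the lowest input of its strain. As IP over input of the same homogenate, the share was 0.223 to 0.573 in the Prestin strain and 0.15 to 0.337 in the Sox2 strain.

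**Figure D2:**
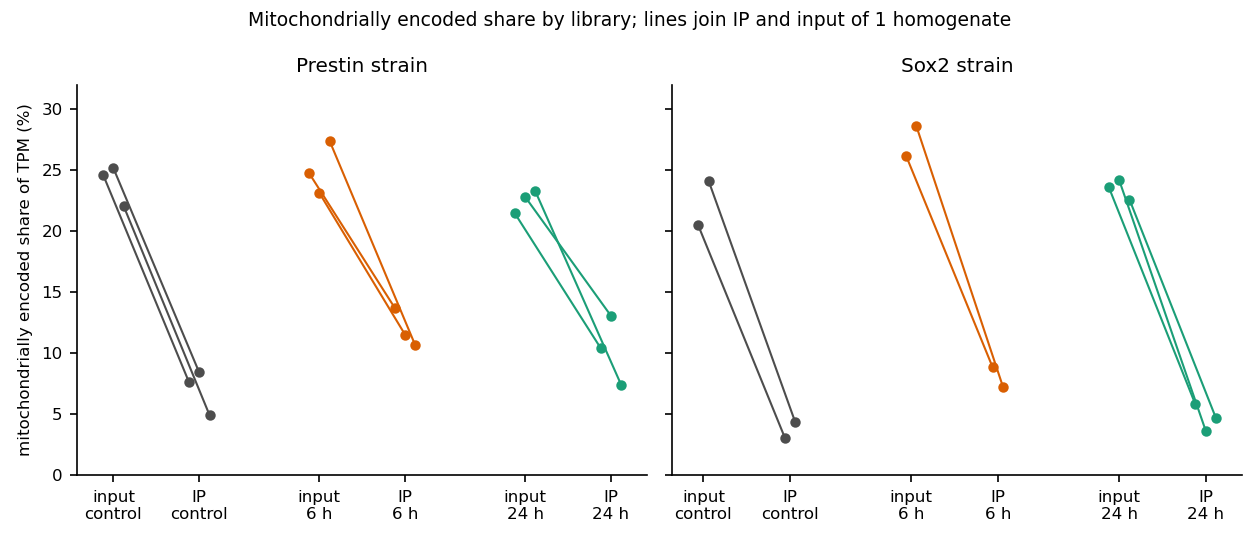
Percentage of a library's TPM held by the 37 mitochondrially encoded genes, with 1 point per library and a line joining the IP and the input of each homogenate; colours give the condition (grey control, orange 6 h, green 24 h). All lines run downward from input to IP, and the orange and green IP points of the Prestin strain lie mostly above the grey ones.

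Gene by gene, the 9 genes with reads in all libraries were lower in the Prestin IPs than in their inputs (9 of 9 called, limma on log2(TPM + 1), adjusted p under 0.05), where 7.68% of all genes tested were called lower. Among complex I subunits, mt-Nd1 ran from 12009 to 32509 TPM (median 20671) in the 9 IPs against 36359 to 43497 TPM (median 42784) in the inputs, a difference of -1.01 ± 0.10 (adjusted p = 4.94e-07). Its IP and input values did not overlap. mt-Nd2 differed by -0.92 ± 0.13 (adjusted p = 1.47e-05), mt-Nd5 by -0.87 ± 0.22 (adjusted p = 0.0024) and mt-Nd6 by -1.01 ± 0.14 (adjusted p = 8.94e-06). mt-Nd4 was closest to its input, with 5783 to 17407 TPM (median 11386) in the IPs and 11184 to 15052 TPM (median 13353) in the inputs, and a difference of -0.30 ± 0.12 (adjusted p = 0.0302). Its IP lay below its own input in 5 of 9 homogenates, and the call was lost without the filter on low genes (adjusted p = 0.192) and in 7 of the 18 fits that left out 1 library (adjusted p from 0.0527 to 0.0617 in those). For the other 8 genes the IP lay below its own input in all 9 homogenates.

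The complex III subunit mt-Cytb was -1.10 ± 0.14 (adjusted p = 5.83e-06) in the Prestin IPs, from 10891 to 40804 TPM (median 27773). mt-Co1 showed the largest difference among the protein-coding genes of the 9, at -2.88 ± 0.18 (adjusted p = 1.47e-09): it ran from 4025 to 14113 TPM (median 10129) in the IPs and from 59017 to 69822 TPM (median 66767) in the inputs, a gap with no overlap. The ribosomal RNAs mt-Rnr1 and mt-Rnr2 were -1.84 ± 0.20 (adjusted p = 1.04e-06) and -2.36 ± 0.20 (adjusted p = 4.58e-08). mt-Rnr2 ran from 1611 to 5838 TPM (median 2265) in the IPs, all below the lowest input of 7704 TPM. The median over the 9 genes was -1.01, against 0.82 over all genes tested, most of which were higher in the IPs. Median-of-ratios scaling moved the median of all genes to 0.07 and that of the 9 genes to -2.09, and all 9 were again called lower.

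The Sox2 IPs had lower levels still relative to their inputs, with 9 of 9 genes called lower against 2.72% of all genes tested. mt-Nd1 ran from 7289.8 to 18829.5 TPM (median 12352) in the 7 IPs and from 38168 to 46640.3 TPM (median 42535) in the inputs, a difference of -1.77 ± 0.15 (adjusted p = 3.77e-06). The other complex I subunits differed by -1.71 ± 0.14 (adjusted p = 3.85e-06) for mt-Nd2, -1.57 ± 0.13 (adjusted p = 3.25e-06) for mt-Nd4, -1.94 ± 0.15 (adjusted p = 2.94e-06) for mt-Nd5 and -1.33 ± 0.10 (adjusted p = 2.03e-06) for mt-Nd6. For mt-Cytb the difference was -2.08 ± 0.13 (adjusted p = 6.17e-07). mt-Co1, from 3067 to 10108 TPM (median 5951) in the IPs and 53608 to 73648 TPM (median 65486) in the inputs, was again furthest from its input among the messengers at -3.42 ± 0.12 (adjusted p = 2.3e-08). mt-Rnr1 and mt-Rnr2 were -2.93 ± 0.21 (adjusted p = 1.72e-06) and -3.31 ± 0.20 (adjusted p = 4.68e-07), and mt-Rnr2 ran from 1074 to 2379.7 TPM (median 1929.6) in the IPs against 12307 to 21019 TPM (median 17462) in the inputs. IP and input ranges did not overlap for any of the 9 genes in this strain, and every IP lay below its own input. The median over the 9 genes was -1.94, against 0.65 over all genes tested. Median-of-ratios scaling moved these medians to -2.85 and 0.03.

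**Figure D3:**
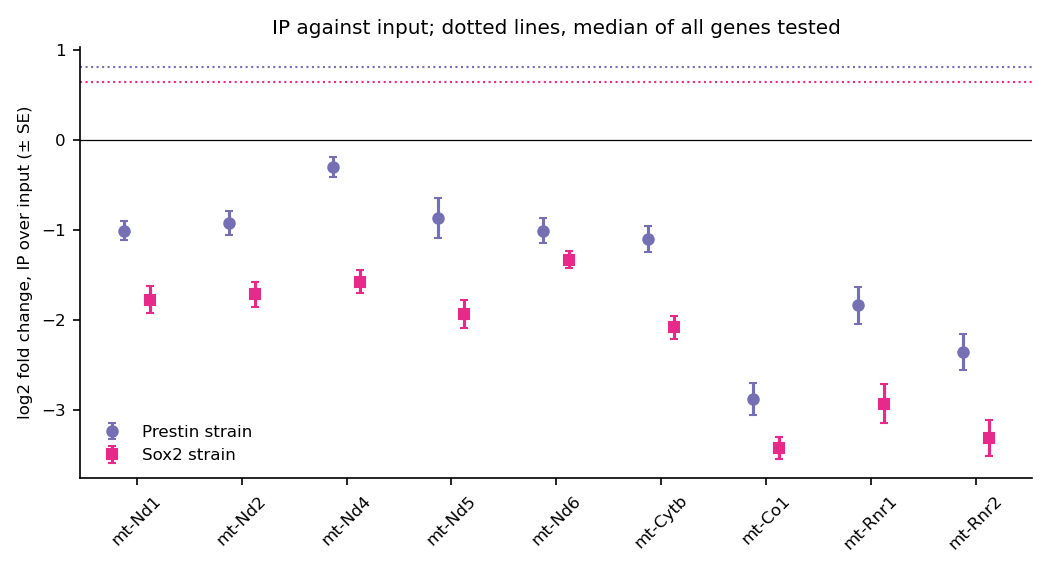
Log2 difference between IP and input for the 9 genes above 0 in every library, in the Prestin and Sox2 strains; points are the limma estimates, bars their standard errors, and dotted lines the median of all genes tested in each strain. All points lie below 0 while both dotted lines lie above it, and mt-Co1, mt-Rnr1 and mt-Rnr2 lie lowest in both strains.

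Within the pull-downs the order of the messengers changed. As a median over homogenates, the IP held 92.5% of the input's level of mt-Nd4 in the Prestin strain, 59.6% of mt-Nd5, 57.5% of mt-Nd2, 52.5% of mt-Cytb, 51.8% of mt-Nd6 and 49.7% of mt-Nd1, but 14.8% of mt-Co1. The ribosomal RNAs stood between, at 30.5% for mt-Rnr1 and 23.5% for mt-Rnr2. In the Sox2 strain the medians were 39.1% for mt-Nd6, 31.9% for mt-Nd4, 31.2% for mt-Nd2, 29% for mt-Nd1, 27.9% for mt-Nd5 and 20% for mt-Cytb, against 9.31% for mt-Co1, 13.7% for mt-Rnr1 and 11.7% for mt-Rnr2. Among the messengers above 0 in every library, mt-Co1 thus passed from first place in the inputs to the fifth in the Prestin IPs. Its median of 10129 TPM there lay below those of mt-Cytb (27773), mt-Nd1 (20671), mt-Nd2 (17281) and mt-Nd4 (11386).

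The ratio of mt-Nd4 to mt-Co1 shows this within single libraries. It lay at 0.178 to 0.221 in the Prestin inputs and 0.191 to 0.229 in the Sox2 inputs, and at 0.486 to 2.28 and 0.539 to 1.22 in the IPs. Each IP had a higher ratio than any input. In the Prestin strain the ratio of an IP over that of its own input was 2.4, 7 and 6.56 in the controls, 7.48, 10.8 and 6.23 at 6 h and 6.22, 5.03 and 5.6 at 24 h. In the Sox2 strain it was 5.32 and 2.61, 3.85 and 3.38 and 3.81, 3.16 and 3.42. The conditions overlapped in both strains. As both genes share most of their length with nuclear copies, the part of read placement in this ratio was not tested. mt-Nd1 shares no window with an annotated nuclear transcript. Its ratio to mt-Co1 was 0.576 to 0.662 in the Prestin inputs and 1.47 to 2.98 in their IPs, and 0.626 to 0.712 and 1.6 to 2.51 in the Sox2 strain. As mt-Co1 is still the denominator, read placement at mt-Co1 can enter this ratio too, and its part was not tested.

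**Figure D4:**
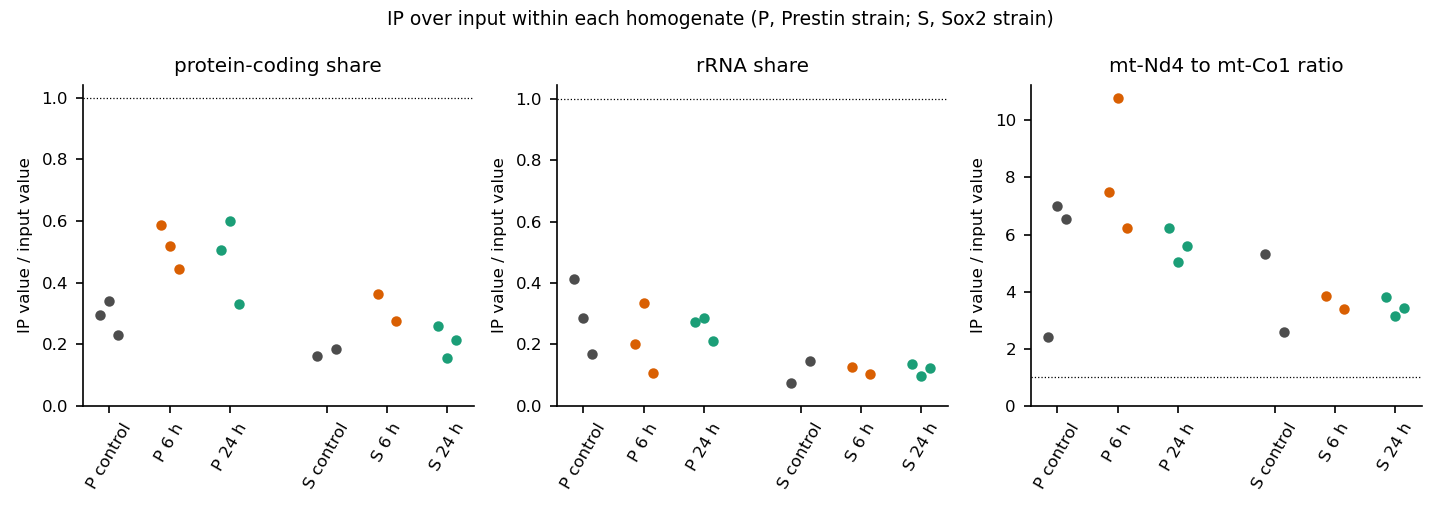
IP divided by input of the same homogenate for the summed protein-coding share, the summed ribosomal RNA share and the mt-Nd4 to mt-Co1 ratio, with 1 point per homogenate and colours for the condition (grey control, orange 6 h, green 24 h). Shares lie below 1 and the mt-Nd4 to mt-Co1 ratio above 1 in every homogenate of both strains.

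Few reads lay behind the other genes. In all, 22 of the 37 genes passed the filter in the Prestin strain and 19 in the Sox2 strain, and the other 15 and 18 were not tested. mt-Tw ran from 189.7 to 422 TPM (median 325) in the Prestin inputs, 775 reads in total, and from 0 to 184 TPM (median 27.1) in the IPs, 57 reads in total. Its difference was -4.51 ± 0.98 (adjusted p = 0.000694) in the Prestin strain and -5.28 ± 0.81 (adjusted p = 0.00027) in the Sox2 strain, where the inputs held 772 reads and the IPs 40. mt-Tp held 1455 reads in the Prestin inputs and 142 in the IPs (-3.03 ± 0.60 (adjusted p = 0.000324)), and 498 and 204 in the Sox2 strain (-2.61 ± 0.68 (adjusted p = 0.00737)). In the Sox2 strain the mt-Tp level of the IP lay below that of its own input in 6 of 7 homogenates. It ran from 0 to 198% of the input, with a median of 47%. Fitted values of such genes depend on the pseudocount of 1. Of the genes called lower, mt-Ti, mt-Ts1, mt-Nd3 and mt-Co2 in the Prestin strain and mt-Tq in the Sox2 strain passed the filter only through the inputs, so their being lower in the IPs is no result. mt-Ti was at 0 in all 9 Prestin IPs and held 43 reads over their inputs. mt-Co2 held 91 reads over the Prestin inputs, 2 over the Prestin IPs and none in any Sox2 library, and mt-Nd3 was at 0 in all Prestin IPs. Gm28438, the nuclear copy of mt-Nd3, had 8.52 to 173 TPM over the 9 Prestin IPs and 1.01 to 83.8 TPM in the Sox2 IPs, both below all inputs (-2.19 ± 0.35 (adjusted p = 4.19e-05) and -4.09 ± 0.50 (adjusted p = 5.39e-05)).

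The gap between IP and input was smaller in the Prestin strain than in the Sox2 strain. With all 32 libraries in 1 limma fit, the difference of the IP against input values (Prestin minus Sox2) was called higher for 7 of the 9 genes, where 16.1% of all genes tested were called higher. It was 1.28 ± 0.18 (adjusted p = 2.6e-05) for mt-Nd4, 1.07 ± 0.30 (adjusted p = 0.0119) for mt-Nd5, 0.79 ± 0.20 (adjusted p = 0.00622) for mt-Nd2, 0.76 ± 0.18 (adjusted p = 0.00326) for mt-Nd1 and 0.98 ± 0.20 (adjusted p = 0.00146) for mt-Cytb. For the ribosomal RNAs it was 1.09 ± 0.31 (adjusted p = 0.0134) for mt-Rnr1 and 0.96 ± 0.29 (adjusted p = 0.0208) for mt-Rnr2. mt-Co1 at 0.54 ± 0.23 (adjusted p = 0.0923) and mt-Nd6 at 0.32 ± 0.19 (adjusted p = 0.216) were not called. The median over the 9 genes was 0.96, against 0.20 over all genes tested. mt-Co2 was called lower (-1.78 ± 0.46 (adjusted p = 0.0074); 8.75% of all genes), a value that follows from its being at 0 in all Sox2 libraries. Without the filter on low genes the calls of mt-Nd1, mt-Nd2 and mt-Cytb were lost and 4 of the 9 genes were called. The call of mt-Rnr2 was lost with median-of-ratios scaling (0.83, adjusted p = 0.0598) and without the Sox2 control IP 1 (0.76, adjusted p = 0.0551). mt-Co1 was called without the Prestin control IP 3 (adjusted p = 0.0107) or the Sox2 control IP 4 (adjusted p = 0.0468), and mt-Nd6 without the Prestin 6 h IP 2 (adjusted p = 0.0458). The strains also differ in the number of genes their files list and in the cells pulled down, which cannot be told apart. Markers of other cells moved with this difference. Of the Schwann and satellite glia markers, 7 of 9 were called lower in the Prestin than in the Sox2 enrichment, and their summed TPM was 1284 to 2324 in the Prestin control IPs, 1893 to 2069 at 6 h and 1544 to 1939.9 at 24 h, and 2811 to 6418, 6029.9 to 7709.6 and 4361 to 8469 in the Sox2 IPs, with no overlap between the strains. Of the stria vascularis markers, 3 of 9 were called higher, while their sums overlapped between the strains in the controls and at 6 h. The stria sum was 1461 to 2181 in the Prestin control IPs, 1825 to 2167 at 6 h and 2173 to 2771 at 24 h, and 1609 to 1798, 1799 to 2056 and 1946 to 2019 in the Sox2 IPs. No marker of either list was at 0 in all libraries of a group, and their part in the result was not tested.

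In the whole cochlea, noise moved few of these genes at 6 h. mt-Nd2 was 26357, 28178 and 22244 TPM in the Prestin control inputs and 31199.6, 28055 and 30962 TPM at 6 h, and 22688 and 27529.6 TPM in the Sox2 control inputs and 32726 and 33556 TPM at 6 h. The 6 h libraries lay above the controls of their strain apart from 1 Prestin library, within the control range. Over both strains, with strain as a covariate, mt-Nd2 rose by 0.31 ± 0.07 (adjusted p = 0.0117), mt-Cytb by 0.26 ± 0.07 (adjusted p = 0.0253) and mt-Nd5 by 0.46 ± 0.13 (adjusted p = 0.0419) on the log2 scale. These were 3 of the 9 genes, where 3.83% of all genes tested were called higher and the median of all genes was -0.09. mt-Cytb was 49136, 51861 and 42182 TPM in the Prestin controls and 54765, 50705 and 54995 TPM at 6 h, and 39342 and 46425 and 54221 and 59196 TPM in the Sox2 strain. Its 6 h values overlapped the controls in the Prestin strain and not in the Sox2 strain. mt-Nd5 was 9771, 12294 and 7379 TPM against 13643, 10948 and 11978 TPM, and 8934 and 13061 against 17025 and 16841 TPM, with the same pattern of overlap. mt-Co1 (0.13 ± 0.06), mt-Nd1 (0.03 ± 0.06), mt-Nd4 (0.14 ± 0.06), mt-Nd6 (0.14 ± 0.15) and the ribosomal RNAs mt-Rnr1 (-0.04 ± 0.21) and mt-Rnr2 (-0.04 ± 0.19) were not called.

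These input calls were weak. None of the 3 was called without the filter on low genes, in the Prestin inputs alone or in the Sox2 inputs alone, and the count fell to 1 when the Prestin control input 3, the Sox2 control input 1 or the Sox2 6 h input 4 was left out. Of the 16 fits that left out 1 input, mt-Nd5 lost its call in 12 (adjusted p from 0.0522 to 0.104) and mt-Cytb in 3 (0.0579 to 0.0691). mt-Ti was called lower (-3.67 ± 1.04 (adjusted p = 0.0427); 4.71% of all genes were called lower), on 3, 10 and 16 reads in the Prestin control inputs and 0, 2 and 0 at 6 h, and 38 and 25 and 45 and 0 in the Sox2 strain. Its call was also lost in the Sox2 inputs alone. mt-Tt was at 0 in all 4 Sox2 libraries taken at 6 h, inputs and IPs, but held 68 and 41 reads in the Sox2 control inputs and 56, 87 and 65 at 24 h. Erythroid markers moved with the 6 h inputs: 3 of 6 were called lower, with Hba-a1 at -0.96 ± 0.24 (adjusted p = 0.0249) and Hba-a2 at -1.17 ± 0.28 (adjusted p = 0.0179). Their summed TPM was 2063 to 4156 in the Prestin controls and 1099 to 1723 at 6 h, and 1819 to 1999.9 and 955 to 1164 in the Sox2 strain. At 24 h the sum was also below the controls, at 1055 to 1776 in the Prestin inputs and 1397 to 1784 in the Sox2 inputs. No erythroid marker was at 0 in all libraries of a group, and the part of these cells in the result was not tested.

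At 24 h, limma called 0 of the 19 genes tested in the inputs (4.44% of all genes were called in either direction). At an unadjusted p under 0.05 there were 2, both ribosomal RNAs, a count given without the share of all genes at that p. mt-Rnr1 was 16551, 14624 and 16955 TPM in the Prestin controls and 7777, 9604 and 10818 TPM at 24 h, and 9994 and 11106 and 11774, 9042 and 7172 TPM in the Sox2 strain, a difference of -0.53 ± 0.20 (adjusted p = 0.204). The Prestin groups did not overlap, while the Sox2 groups did. For mt-Rnr2 the difference was -0.53 ± 0.18 (adjusted p = 0.143), from 16305, 14257 and 16189.8 TPM to 7704, 9631 and 10667 TPM in the Prestin strain, without overlap, and from 16893 and 18798 TPM to 18308, 14861 and 12307 TPM in the Sox2 strain, with overlap. mt-Rnr2 was called once the Prestin 6 h input 3 was left out (adjusted p = 0.0459), a library with 22205 TPM of mt-Rnr2, the highest of all inputs. Macrophage markers moved at the same time: 4 of 8 were called higher at 24 h, and their summed TPM went from 151 to 172 to 387 to 414 in the Prestin inputs and from 190.3 to 205 to 323 to 484 in the Sox2 inputs. No macrophage marker was at 0 in all libraries of a group. The erythroid sums were also below the controls at 24 h, and the part of either cell type was not tested.

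In the outer hair cell pull-down, no gene passed the test of noise on the IP libraries, and the messengers did not all differ in the same direction. The complex I subunit mt-Nd4 was 5855, 9995 and 5783 TPM in the Prestin control IPs, 16223, 17407 and 13921 TPM at 6 h and 11386, 14215 and 8955 TPM at 24 h. mt-Nd2 was 9056, 12695 and 6893 TPM, then 24489.6, 18550.0 and 17793 TPM and 17281, 20423 and 11263 TPM. mt-Cytb was 13588, 20881 and 10891 TPM, 40804, 32309 and 28858 TPM and 27773, 32925 and 16676 TPM. For all 3 genes the 6 h libraries lay above every control library, while at 24 h the lowest library fell inside the control range. mt-Nd5 was 2571, 5903 and 2150.2 TPM, 12848, 8539 and 7139 TPM and 8373, 9666 and 3839 TPM, with the same overlap at 24 h, and mt-Nd1 was 17753, 17252 and 12009 TPM, 25284, 20671 and 21498 TPM and 23409.9, 32509 and 19845 TPM, with no overlap at either time. At 6 h the differences were 1.18 ± 0.31 (adjusted p = 0.063) for mt-Nd4, 1.12 ± 0.34 (adjusted p = 0.0917) for mt-Nd2, 1.21 ± 0.38 (adjusted p = 0.0966) for mt-Cytb, 1.53 ± 0.50 (adjusted p = 0.104) for mt-Nd5 and 0.54 ± 0.30 (adjusted p = 0.296) for mt-Nd1. mt-Co1, at 12036, 7227 and 4025 TPM in controls and 11396, 7620.2 and 10129 TPM at 6 h, overlapped (0.44 ± 0.43 (adjusted p = 0.533)), and mt-Nd6 was at 0.00 ± 0.29. At 24 h mt-Nd6 was 1266, 1018 and 867 TPM against 1316, 1475 and 1126 TPM in controls, with overlap (-0.32 ± 0.29 (adjusted p = 0.492)).

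The ribosomal RNAs passed the test at neither time in this pull-down. mt-Rnr1 was 7781, 4657 and 3339 TPM in the Prestin control IPs, 2319, 5205 and 2994 TPM at 6 h and 2369, 3210.4 and 2801 TPM at 24 h. mt-Rnr2 was 5838, 3576 and 2313 TPM, 1611, 3221 and 1882 TPM and 1853, 2265 and 1759.9 TPM. Both overlapped the controls at 6 h, and at 24 h they did not. The log2 differences of mt-Rnr1 and mt-Rnr2 were -0.58 ± 0.39 (adjusted p = 0.376) and -0.77 ± 0.38 (adjusted p = 0.245) at 6 h and -0.84 ± 0.39 (adjusted p = 0.218) and -0.90 ± 0.38 (adjusted p = 0.182) at 24 h. As a percentage of all mitochondrially encoded TPM, the ribosomal RNAs made up 17.9, 9.8 and 11.5% in the control IPs, 2.87, 7.32 and 4.59% at 6 h and 4.05, 4.19 and 6.16% at 24 h. All 6 noise IPs lay below all 3 control IPs. In the Prestin inputs the same percentage was 13.4, 11.5 and 15.1% in controls, 7.84, 10.9 and 16.4% at 6 h and 7.22, 8.43 and 9.24% at 24 h, with the 24 h inputs below the controls and the 6 h inputs overlapping them. This percentage was given no test, since it is a sum over genes chosen with earlier results known.

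By the test on the 9 Prestin IPs, limma called 0 of 15 genes at 6 h and 0 of 15 at 24 h, where 5.63% and 6.23% of all genes tested were called in either direction. At an unadjusted p under 0.05 there were 4 at 6 h, all higher (mt-Cytb, mt-Nd2, mt-Nd4 and mt-Nd5), and 2 at 24 h, both lower (mt-Rnr2 and mt-Tp). As no share of all genes at that p is given, nothing is concluded from these counts. When IPs and inputs were fitted together and shared 1 estimate of the spread, limma called mt-Nd1, mt-Nd2, mt-Nd4, mt-Nd5 and mt-Cytb higher at 6 h (24.5% of all genes were called in that fit), and mt-Nd1, mt-Nd2, mt-Nd4 and mt-Cytb higher and mt-Tp lower at 24 h (24.7% of all genes). Leaving out the Prestin control IP 2, whose mt-Nd4 level was the highest control at 9995 TPM, gave 1 call at 6 h on the IP libraries alone (mt-Nd4, adjusted p = 0.0447). Malat1, a nuclear RNA, moved with these groups. It was 73023, 44030.0 and 48286 TPM in the control IPs, 15602, 17212 and 21421 TPM at 6 h and 16487, 12251 and 22823 TPM at 24 h, and fell by 1.58 (adjusted p = 0.0441) and 1.69 (adjusted p = 0.035) on the log2 scale. Malat1 and Neat1 (-1.44 ± 0.25 (adjusted p = 0.0279) at 6 h) were the 2 called lower of 4 nuclear long noncoding RNAs tested. Outer hair cell markers (0 of 10 called at either time, none at 0) had a summed TPM of 849 to 2312 in the control IPs, 539 to 859 at 6 h and 809 to 929.5 at 24 h. At an unadjusted p under 0.05, 5 of them were lower at 6 h and 0 at 24 h. Macrophage markers summed to 88.4 to 136 TPM in the control IPs, 88.5 to 154 at 6 h and 226 to 348 at 24 h, when 1 of 8 was called higher, and supporting cell markers to 3279 to 3785, 3243 to 3998 and 4582 to 4855 TPM, with 1 of 10 called higher at 24 h. No marker of these 2 lists was at 0 in all libraries of a group, and the part of these cells and of Malat1 in the result was not tested. With TPM rescaled to the sum of all genes other than the mitochondrially encoded ones, Malat1 and Mir6236, the 9 genes had a median of 0.56 at 6 h against 0.54 without rescaling, and again 0 were called.

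**Figure D5:**
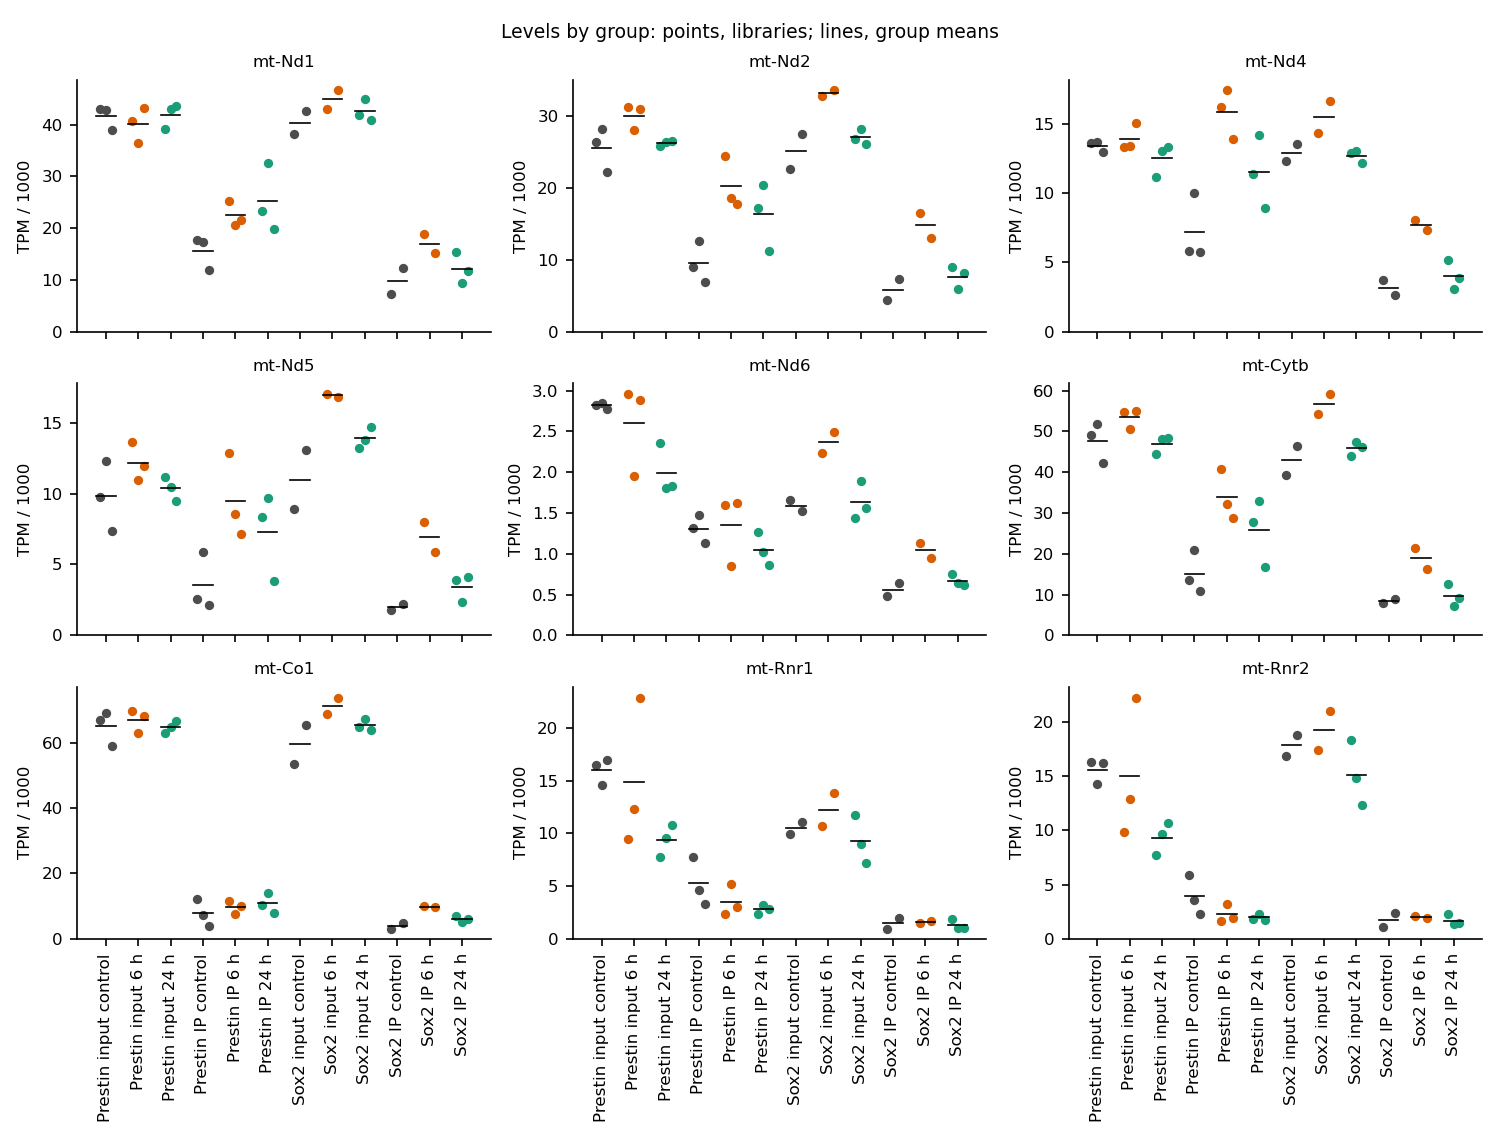
Levels of the 9 genes above 0 in every library in all 12 groups, on linear TPM axes, with 1 point per library. In the Prestin IPs the 6 h points of mt-Nd2, mt-Nd4, mt-Nd5 and mt-Cytb lie above all control points. In the Prestin inputs the 24 h points of mt-Rnr1 and mt-Rnr2 lie below the control points.

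In the supporting cell pull-down all messengers of the 9 genes had their highest library at 6 h. mt-Co1 was 3067 and 4920.5 TPM in the 2 Sox2 control IPs, 10108 and 9565 TPM at 6 h and 6815, 5025 and 5951 TPM at 24 h. mt-Nd5 was 1807 and 2179 TPM, 7992 and 5876 TPM and 3881, 2324 and 4106 TPM. mt-Cytb was 7807 and 8847 TPM, 21473 and 16231 TPM and 12532, 7264 and 9239 TPM. Both 6 h libraries lay above both controls and all 24 h libraries for these 3 genes, and likewise for mt-Nd2 (4402 and 7369.6 TPM, 16590.0 and 13036 TPM and 8956, 5933 and 8142 TPM), mt-Nd4 (3742 and 2650.0 TPM, 8092 and 7316 TPM and 5145, 3066 and 3886 TPM) and mt-Nd6 (482 and 637 TPM, 1136 and 947 TPM and 753, 646 and 613 TPM). At 6 h the log2 differences from control were 1.79 ± 0.34 (adjusted p = 0.0889) for mt-Nd5, 1.34 ± 0.29 (adjusted p = 0.105) for mt-Co1, 0.90 ± 0.21 (adjusted p = 0.117) for mt-Nd6, 1.29 ± 0.31 (adjusted p = 0.121) for mt-Nd4, 1.37 ± 0.35 (adjusted p = 0.131) for mt-Nd2, 1.17 ± 0.33 (adjusted p = 0.152) for mt-Cytb and 0.84 ± 0.37 (adjusted p = 0.305) for mt-Nd1. The ribosomal RNAs overlapped between the groups, with mt-Rnr2 at 1074 and 2379.7 TPM in controls and 2103 and 1929.6 TPM at 6 h (0.33 ± 0.43) and mt-Rnr1 at 0.24 ± 0.45.

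On the 7 Sox2 IPs, limma called 0 of 15 genes at 6 h and 0 of 15 at 24 h (0.694% and 0.188% of all genes were called in either direction). At an unadjusted p under 0.05 there were 7 at 6 h, all higher (mt-Co1, mt-Cytb, mt-Nd2, mt-Nd4, mt-Nd5, mt-Nd6 and mt-Tp), and 1 at 24 h (mt-Tp, higher). The share of all genes at that p is not given here, so these counts alone show no response of the members. Fitted together with the inputs, mt-Co1, mt-Cytb, mt-Nd2, mt-Nd4, mt-Nd5, mt-Nd6 and mt-Tp were called higher at 6 h and mt-Tp at 24 h, in fits that called 9.34% and 3.05% of all genes. The reads behind mt-Tp were 1 and 0 in the control IPs, 51 and 40 at 6 h and 83, 3 and 26 at 24 h. At 24 h the median over the 9 genes was 0.32, and mt-Nd1, at 15349, 9462 and 11777 TPM, overlapped its controls at 7289.8 and 12352 TPM. The 2 Sox2 6 h IPs are among the 4 Sox2 libraries with the fewest genes above 0, and the part of this in the result was not tested. Macrophage markers summed to 102 to 142 TPM in the Sox2 control IPs, 205 to 252 at 6 h and 220.0 to 233 at 24 h, above the controls at both times. limma called 0 of 8 of them at 6 h (3 higher at an unadjusted p under 0.05) and 0 of 8 at 24 h (3 higher), none was at 0 in all libraries of a group, and their part in the result was not tested. Both times were compared with the same control libraries in each strain, so their differences are not independent.

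Whether an IP answered noise differently from its own whole cochlea was tested as the difference of the responses. In the Prestin strain at 6 h this was 1.13 ± 0.28 (adjusted p = 0.0536) for mt-Nd4, 1.04 ± 0.35 (adjusted p = 0.12) for mt-Cytb, 0.88 ± 0.32 (adjusted p = 0.151) for mt-Nd2, 1.19 ± 0.54 (adjusted p = 0.244) for mt-Nd5 and 0.59 ± 0.26 (adjusted p = 0.221) for mt-Nd1. None of these was called. mt-Ti was called (3.91 ± 0.96 (adjusted p = 0.0482)), where 0.15% of all genes were called higher, but it was at 0 in all 9 Prestin IPs, so the call rests on the few reads of the inputs. It was lost with a pseudocount of 0.1, without the filter, under all 3 other scalings and with the homogenate as a block. Without the Prestin control IP 2, 4 genes were called, among them mt-Nd2, mt-Nd4 and mt-Cytb (log2 1.11, 1.39 and 1.30, adjusted p = 0.0434, 0.0104 and 0.0311). mt-Nd4 was also called without the Prestin 24 h IP 2, the 24 h IP 3 or the 6 h IP 3 (adjusted p = 0.0493, 0.0459 and 0.0435). At 24 h in the Prestin strain, and at 6 h and 24 h in the Sox2 strain, limma called 0 genes, where 1.04%, 0.269% and 0.0485% of all genes were called in either direction. At an unadjusted p under 0.05 there were 7 in the Prestin strain at 6 h and 5 at 24 h, and 7 and 1 in the Sox2 strain, of which all but mt-Tp in the Prestin strain at 24 h were higher. Of these, mt-Nd3 and mt-Ti in the Prestin strain at 6 h were at 0 in all 9 Prestin IPs. mt-Tt in the Sox2 strain at 6 h was at 0 in the control and 6 h IPs. The values of these genes follow from the inputs and are no result about the IPs. Among the 9 genes above 0 in every library the counts were 5 at 6 h and 4 at 24 h in the Prestin strain, and 5 and 0 in the Sox2 strain. The share of all genes at that p is not given here.

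The ratio of IP to input within a homogenate gives the same comparison without a model. For the summed protein-coding genes it was 0.293, 0.342 and 0.231 in the Prestin controls, 0.586, 0.518 and 0.444 at 6 h and 0.506, 0.601 and 0.331 at 24 h. The 6 h homogenates lay above all controls, and 1 of the 3 at 24 h lay inside the control range. In the Sox2 strain it was 0.162 and 0.185 in controls, 0.362 and 0.274 at 6 h and 0.261, 0.156 and 0.213 at 24 h, with the 6 h homogenates above the controls. For the ribosomal RNAs it was 0.414, 0.285 and 0.171, 0.203, 0.334 and 0.108 and 0.273, 0.285 and 0.212 in the Prestin strain and 0.0747 and 0.145, 0.127 and 0.105 and 0.136, 0.098 and 0.124 in the Sox2 strain, and the conditions overlapped in both.

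The nuclear partners of these genes are translated on cytosolic ribosomes. Of 80 nuclear-encoded respiratory chain subunits tested in the Prestin strain, 56 were called lower in the IP and 10 higher, against 7.68% lower and 68.5% higher over all genes, and the list's median was -0.64. The complex I subunit Ndufa1 was -1.82 ± 0.09 (adjusted p = 3.03e-10) and the complex IV subunits Cox7a2 and Cox7b were -1.76 ± 0.10 (adjusted p = 1.08e-09) and -1.40 ± 0.09 (adjusted p = 1.61e-09). In the Sox2 strain 25 of 79 were lower and 15 higher (median -0.13; 2.72% of all genes were called lower and 55.2% higher), with Cox7a2 at -0.95 ± 0.09 (adjusted p = 7.19e-06) and Ndufs1 at 0.46 ± 0.07 (adjusted p = 0.00016). In the difference between the strains, 49 of 80 subunits were called lower in the Prestin than in the Sox2 enrichment and none higher (limma; median -0.56), where 8.75% of all genes were called lower and 16.1% higher. At an unadjusted p under 0.05, 2 subunits were higher, a count given without the share of all genes at that p. Mitochondrial ribosomal proteins, which join the 12S and 16S RNAs, were higher for 35 and lower for 18 of 74 in the Prestin strain and higher for 35 and lower for none of 75 in the Sox2 strain. Over all genes, 68.5% were called higher and 7.68% lower in the Prestin strain, and 55.2% and 2.72% in the Sox2 strain. The list was thus called higher less often than all genes in both strains. Mrpl37 was at 1.10 ± 0.09 (adjusted p = 6.38e-08) in the Prestin IPs and Mrps2 at 2.01 ± 0.15 (adjusted p = 2.13e-06) in the Sox2 IPs.

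Genes that make, cut and translate mitochondrial RNA were mostly called higher in the IPs, as were 68.5% of all genes in the Prestin strain and 55.2% in the Sox2 strain. Of the genes for transcription and upkeep of mitochondrial DNA, 15 of 16 were called higher in the Prestin IPs and 11 of 16 in the Sox2 IPs, with the helicase Twnk at 1.44 ± 0.10 (adjusted p = 5.16e-09) and 1.85 ± 0.11 (adjusted p = 4.71e-07) and the polymerase subunit Polg2 at 1.69 ± 0.12 (adjusted p = 9.12e-09) in the Prestin IPs. Genes for RNA cleavage and tRNA maturation were higher for 18 of 20 and 12 of 19, and genes for RNA stability for 14 and 15 of 18, among them Fastk at 2.12 ± 0.09 (adjusted p = 3.24e-11) in the Prestin IPs and Lrpprc, a binder of mitochondrial messengers, at 0.95 ± 0.11 (adjusted p = 3.81e-05) in the Sox2 IPs. Translation factors were higher for 12 and 10 of 13, aminoacyl-tRNA synthetases for 15 and 10 of 18, and regulators of mitochondrial biogenesis for 11 and 10 of 11, and several of these counts, such as 11 of 16, 12 of 19 and 10 of 18 in the Sox2 strain, lie near the share of all genes. Ppargc1a, a coactivator of biogenesis, was at 1.48 ± 0.07 (adjusted p = 8.6e-11) in the Prestin IPs. In the inputs at 6 h, 12 of 79 respiratory chain subunits were called lower and none higher (42 lower and 0 higher at an unadjusted p under 0.05), where 4.71% of all genes were called lower and 3.83% higher, and 9 of 73 mitochondrial ribosomal proteins were lower and 1 higher. In the Prestin IPs, limma called 0 of 80 respiratory chain subunits at 6 h (10 at an unadjusted p under 0.05, all lower) and 0 of 80 at 24 h (1 higher and 3 lower at that p). The share of all genes at that unadjusted p is given for neither inputs nor IPs, so nothing is concluded from these counts.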

How the data were processed

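The authors deposited 1 file of TPM values per library. The submitters' processing notes name TopHat and the GRCm38 build, and the library kit was NEBNext Ultra Directional, per the labels' protocols. Which tool counted reads, with which annotation, versions and strand setting, and how reads with several placements were treated, is not given in the sources used here. Labels gave every library its group, and 0 columns stayed unmapped. Positions and sequences were taken from GENCODE M21.

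limma 3.58.1 in R 4.3.3 (lmFit and trended eBayes) was run on log2(TPM + 1), two-sided, with Benjamini-Hochberg adjustment over all genes tested and a threshold of 0.05. Differences are log2 ± standard error of the fit. In low genes they depend on the pseudocount and on libraries without reads, and can understate or overstate the change in mean TPM. The mean of mt-Tw was 321 TPM in the Prestin inputs and 52.8 TPM in the IPs, with a fitted difference of -4.51. Genes needed 1 TPM or more in 3 (Prestin), 2 (Sox2) or 5 (both strains) libraries. IPs were set against inputs over the 3 conditions of a strain, noise was tested within the IPs of a strain, and inputs of both strains were fitted together with strain as a covariate. The fits were tested on simulated data with known changes. Sums and ratios over the genes got no test. Counts at an unadjusted p under 0.05 are given without the share of all genes at that p, so no conclusion about the genes or lists is drawn from them. Tables and figures used Python 3.11.15, pandas 2.3.3, numpy 2.4.6 and matplotlib 3.10.9.

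The genes and the lists of nuclear partners and markers were chosen with earlier results of these data known. Any mt- gene and any nuclear copy could be named. Of the lists, up to 4 members with the smallest p in an enrichment or in a noise comparison with a call could be named, plus Slc26a5, Ocm, Sox2, Fgfr3, Hba-a1, Malat1 and the 2 members with the smallest p of a marker list set beside a result; 1 gene that this rule names is not reported here. IP and input of a homogenate are paired by the design, and after subtraction of group means they correlated over genes at r = 0.0209 to 0.273. Equal replicate numbers in different Prestin conditions did not pair (r = -0.0979 to 0.0385). The settings varied were the pseudocount (0.1), the filter (none), the scaling (median-of-ratios, or a rescaling that leaves out the mitochondrially encoded genes), blocks, joint fits of IP and input, single strains or conditions, and single libraries left out. A rescaling that also leaves out Malat1 and Mir6236 was chosen after seeing the data.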

Additional observations from a re-analysis of the deposited data

Results flagged for a closer look

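The following results differed between groups by a test of the difference itself (limma, interaction terms, adjusted p under 0.05). The IP against input difference was less negative in the Prestin than in the Sox2 strain for mt-Nd4 (1.28 on the log2 scale), mt-Rnr1 (1.09), mt-Nd5 (1.07), mt-Cytb (0.98), mt-Rnr2 (0.96, a call lost with median-of-ratios scaling or without the Sox2 control IP 1), mt-Nd2 (0.79) and mt-Nd1 (0.76). mt-Co2 had the opposite sign (-1.78), with 0 reads in all Sox2 libraries. In the Prestin strain at 6 h, mt-Ti was called for the difference of responses (3.91), but it had 0 reads in all 9 Prestin IPs. The value follows from the few reads of the inputs and is no result about the IPs. The call was lost with a pseudocount of 0.1, without the filter, under each other scaling and with the homogenate as a block. Groups held 2 or 3 libraries, too few for a test of single libraries that stand apart.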

How the results depend on the processing

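Depth limits the tRNA genes most, since 1 read was worth 2.46 to 11.1 TPM, and groups of 2 or 3 libraries limit the noise comparisons. The 9 genes above 0 in every library were lower in the IP in all alternatives run, and 8 to 9 of them were called in the Prestin strain and 9 in the Sox2 strain. Median-of-ratios scaling moved the share of all genes called lower from 7.68 to 31.1% and higher from 68.5 to 33.4% in the Prestin strain, and from 2.72 to 18.5% and 55.2 to 18.7% in the Sox2 strain. The strain difference gave 7 to 9 calls over these, but 5 calls without the filter, 4 of them among the 9 genes above 0 in every library. Joint fits of IP and input gave 5 calls (5 of the 9 genes) for the Prestin IPs at 6 h, 5 (4 of the 9) at 24 h, 7 (6 of the 9) for the Sox2 IPs at 6 h and 1 at 24 h, against 0 without them. The inputs at 6 h gave 4 calls, 0 without the filter (0 of the 9), and 1 in the Prestin inputs alone and 1 in the Sox2 inputs alone (0 of the 9 in each). Over single libraries left out, the inputs gave 1 to 4 calls at 6 h (1 to 3 of the 9) and 0 to 1 at 24 h (0 to 1 of the 9), and the Prestin IPs at 6 h 0 to 1 (0 to 1 of the 9). The response of the Prestin IPs against their inputs at 6 h gave 1 call, and 0 with a pseudocount of 0.1, 0 without the filter, 0 with median-of-ratios scaling, 0 with either rescaling and 0 with the homogenate as a block. Over single libraries left out it gave 0 to 4 (0 to 3 of the 9), at 24 h 0 to 1 (0 to 1 of the 9), and in the Sox2 strain 0 to 1 at 6 h and 0 to 1 at 24 h; the 24 h call of the Prestin strain appeared without the Prestin control IP 2, and those of the Sox2 strain without the Sox2 24 h IP 1 or, at 24 h, the Sox2 24 h input 2. With the homogenate as a paired block, the enrichments again gave 18 and 14 calls lower and the strain difference 7 higher and 1 lower. The genes tested included mt-Ti, mt-Ts1, mt-Nd3 and mt-Co2 in the Prestin strain and mt-Tq in the Sox2 strain. These passed the filter only through the inputs, so their part in the counts is no result. With the replicate number as a block the Prestin IPs gave 0 and 0. The causes of these changes were not tested.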
